A study of Triticum aestivum with 12 samples.

Results

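Grain maturation was followed in IITR26, a wheat (Triticum aestivum L.) landrace that the study grew for its mineral-rich grain, by setting 3 arrays of grains at 28 days after anthesis (DAA) against 3 arrays of grains at 14 DAA. These 6 arrays were chosen by their labels, genotype and stage, from 12 arrays in all, and no measured value entered the choice. The other 6 arrays hold the same stages of the cultivar WL711, which has grain low in minerals. Ears of field-grown plants were tagged at anthesis, and RNA from 3 whole grains made up each sample, which was read on 1 Affymetrix wheat genome array. No plant was treated, and both genotypes are single lines. The grains were not dissected, so embryo, aleurone, starchy endosperm, transfer cells and pericarp were measured together, and fewer cells of a type cannot be told apart from less RNA per cell.

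A wheat grain first divides and differentiates, then fills with starch and storage protein, and at last dries. Sugars, amino acids and minerals enter the endosperm through transfer cells at its base. The outer pericarp is green for part of this time and carries out photosynthesis. As the embryo and the aleurone mature, abscisic acid drives the expression of late embryogenesis abundant (LEA) proteins, small heat shock proteins and the coat proteins of oil bodies, which allow these tissues to survive drying, whereas the starchy endosperm dies.

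Each value is a log2 expression value relative to the median of the same probe set over all 12 arrays, so a value of 0 is that median and not the background. Differences between arrays can be read from these values, whereas the brightness of a probe set and its presence or absence cannot. A rise or a fall was called where limma's p-value, adjusted over 61179 probe sets after Benjamini and Hochberg, was at most 0.01 and the log2 fold change was at least 2 in size, a 4-fold difference. Fold changes are 28 DAA minus 14 DAA and are given with the standard error (SE) of the fit.

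IITR26 grains at 28 DAA differed from those at 14 DAA in 1785 probe sets, 2.92% of those tested. Of these, 812 (1.33%) were higher and 973 (1.59%) were lower at 28 DAA. The median log2 fold change was 2.87 among the higher and -2.69 among the lower, against 0.014 over all probe sets. The rises reached further than the falls, with 63 probe sets up and 35 down by a log2 fold change of 6 or more, and with 14 up and 2 down by 8 or more. The plot of fold change against adjusted p shows this asymmetry.

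**Figure D1:**
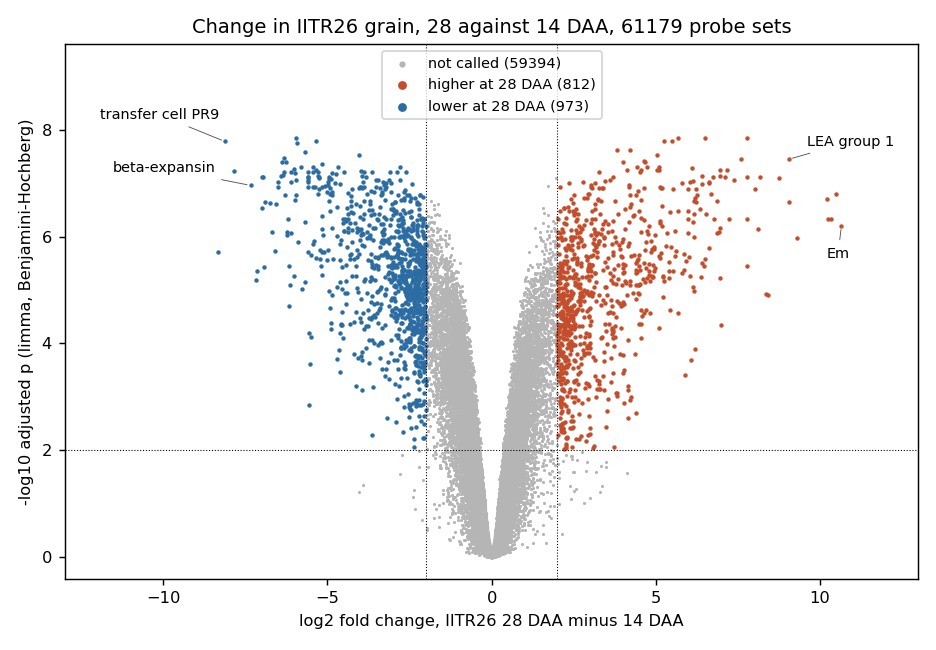
Log2 fold change of IITR26 grain, 28 DAA minus 14 DAA (x axis), against -log10 of the adjusted p of limma (y axis) for 61179 probe sets, with dotted lines at the thresholds. The 812 higher probe sets reach 10.65 (Em) and the 973 lower ones reach -8.32.

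The median SD of a probe set over its 3 replicate arrays was 0.177 at 28 DAA and 0.133 at 14 DAA. Replicate 3 of 14 DAA had the highest value of its group in 523 of the 812 probe sets that rose (64.4%). Its median over these probe sets was -0.52, against -0.77 and -0.96 in replicates 1 and 2. Among WL711 arrays, which share the estimate of spread, replicate 1 of 28 DAA stood apart, and leaving it out ended 0 of the 85 calls in IITR26 among the probe sets named here. With 3 arrays a group, an exact two-sided permutation test reaches no p under 0.1, so the tests rest on the fit across all probe sets, and the 3 arrays of a group limit the precision.

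Only 623 of the 61179 probe sets carry a name here, and of the 1785 called probe sets 57 of those that rose and 144 of those that fell are among them. The names come from 2 sources. The first is a list of putative functions, made for probe sets that differed between IITR26 and WL711 on these same arrays. It holds 580 probe sets, of which 431 have a function. In that list 64 probe sets rose (11.0%) and 136 fell (23.4%), and since it was chosen on these samples it is not independent evidence of the direction of any group. The annotation of the platform names a gene for 1273 probe sets without regard to these arrays, and 200 of them have more than a locus number. Of those 200, 12 rose (6.0%) and 25 fell (12.5%). Functions are used below as the study assigned them, and the 2 kinds of names are kept apart.

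Em proteins gave the largest rises. Em is the group 1 LEA protein first found in the wheat embryo, a small and very hydrophilic protein made late in seed development. The probe set of the Em gene LOC543497 on chromosome 1B had values of 5.41, 5.74 and 5.47 at 28 DAA, against -6.32, -5.93 and -3.10 at 14 DAA. All 3 arrays of 28 DAA lay far above those of 14 DAA, where replicate 3 was the highest. Such a lack of overlap is common here, with 28 DAA above 14 DAA in 18.0% of all probe sets and below it in 19.9% (37.9% in either direction). The log2 fold change was 10.65 (SE 0.67, adjusted p = 6.3e-07), the largest of all 61179. A further probe set of this gene rose by 10.22 (SE 0.55), and the 3 probe sets of the Em gene LOC543480 on chromosome 1A rose by 9.04 to 10.33. These probe sets carry a shared name and may read each other's transcripts, so they count as 1 observation of the Em family rather than 5.

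Rab15, a dehydrin that responds to abscisic acid, rose in each of its 3 probe sets. The probe set with the largest change had 3.70, 3.66 and 4.19 at 28 DAA, against -3.36, -3.63 and -2.03 at 14 DAA. This is a log2 fold change of 6.86 (SE 0.37, adjusted p = 2.2e-07), or 116-fold, and the other 2 probe sets gave 5.61 and 5.59. LEA1 of chromosome 1A (LOC543476) had 1.26, 1.24 and 1.36 against -1.05, -1.09 and -0.57, a smaller rise of 2.19 (SE 0.14, adjusted p = 8.4e-07). The cold-regulated dehydrin WCOR410 did not share the rise. Its values of -0.17, -0.17 and -0.17 at 28 DAA, against 0.01, 0.33 and 0.18 at 14 DAA, gave a log2 fold change of -0.34 (adjusted p = 0.032). Thus 9 of the 10 probe sets of Em, Rab15 and other LEA genes rose and 0 fell, with a median of 7.95, against 0.014 over all probe sets. Of the 200 probe sets with a platform name 6.0% rose. The 10 probe sets stand for only 5 genes. Repeats of Em and Rab15 set the median, so the count is not a count of separate observations. This list was formed after the values were seen, and with a filter on the coefficient of variation within each group 1 of the 9 was still called.

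The LEA proteins and dehydrins named by function followed, with 5 of 10 probe sets higher, 0 lower and a median of 2.75. Of the whole list of functions 11.0% rose. The probe set of an LEA group 1 protein had values of 7.30, 8.11 and 9.06 at 28 DAA, against -0.75, -1.02 and -0.93 at 14 DAA, and rose by 9.06 (SE 0.34, adjusted p = 3.6e-08). The 14 DAA arrays were tightly grouped and the 28 DAA arrays spread over more than 1 log2 unit, with no overlap. A small hydrophilic plant seed protein, of the same class, rose by 5.26 (SE 0.17), the dehydrin xero 1 by 5.02 (SE 0.18) and the embryonic protein DC-8, an LEA protein described in carrot, by 4.49 (SE 0.41). The 5 members that were not called lay between 0.15 and 1.98.

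LEA protein 12 is the only one of the study's 5 primer targets listed here whose probe set was called, and it was chosen for display after its values were seen. The primers, given so that the transcript behind the probe set can be found, are printed in lower case as no base in them is set apart.
LEA protein 12 forward: cgtgcagtacaataaggacgacggcc
LEA protein 12 reverse: tgcagattcaggtgctgcgtcggga
Its probe set had 1.90, 2.15 and 2.33 at 28 DAA, against -1.88, -1.64 and -0.64 at 14 DAA. The stages did not overlap, and the probe set rose by 3.51 on the log2 scale (SE 0.28, adjusted p = 3.7e-06), or 11.4-fold.

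Both oil body proteins rose, against 11.0% of the whole list of functions. Oleosin, which coats and stabilizes the oil bodies of embryo and aleurone, had 3.66, 3.79 and 3.77 at 28 DAA, against -1.78, -1.80 and -0.61 at 14 DAA, a log2 fold change of 5.14 (SE 0.32, adjusted p = 5.5e-07). A caleosin-related protein, a calcium-binding protein of the oil body surface, had 1.56, 2.09 and 1.97 against -1.45, -1.12 and -2.09, and rose by 3.43 (SE 0.24, adjusted p = 1.4e-06). In neither did a 14 DAA array reach the lowest 28 DAA array.

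Among heat shock proteins and chaperones, 2 of 4 probe sets rose and 1 fell, against 11.0% and 23.4% of the whole list of functions. A small heat shock protein rose by 4.44 (SE 0.37, adjusted p = 4.6e-06), with 3.01, 3.22 and 3.40 at 28 DAA, against -0.51, -2.16 and -1.03 at 14 DAA. The gene hsp16.9A, which encodes a cytosolic small heat shock protein, had 7.24, 6.42 and 6.97 at 28 DAA, against 4.92, 1.30 and 1.92 at 14 DAA. The stages did not overlap, but replicate 1 of 14 DAA lay well above the other two, and the rise of 4.16 (SE 0.69, adjusted p = 0.00073) was not called in the fit of the 6 IITR26 arrays alone (adjusted p = 0.013). The DnaJ 6-like chaperone gave 0.19 (SE 0.46), and a proteasome assembly chaperone fell by 2.58 (SE 0.40, adjusted p = 0.00045).

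**Figure D2:**
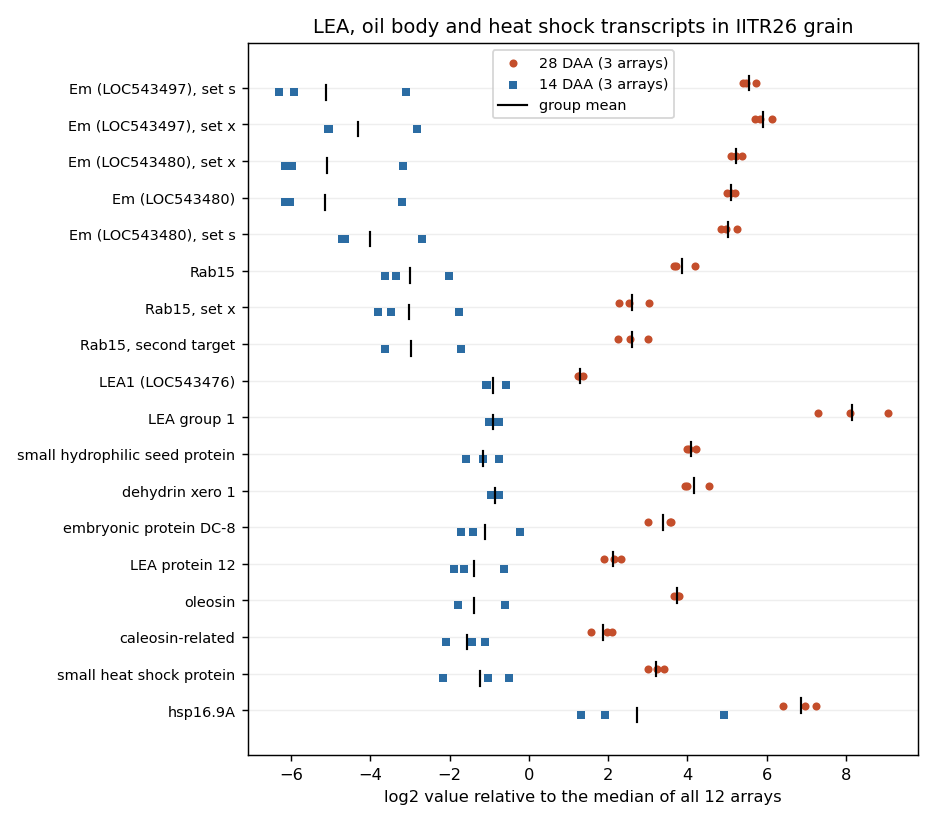
Log2 values relative to the median of all 12 arrays (x axis) of 18 probe sets of LEA, oil body and small heat shock proteins (rows), with 1 point for each IITR26 array and a bar at each group mean. The rows are called rises only, so the 3 arrays of 28 DAA lie above the 3 of 14 DAA in each (WCOR410, which was not called, is not drawn), and replicate 3 of 14 DAA is the rightmost square in each row of Em and Rab15.

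The 4 probe sets listed as related to abscisic acid did not move as a group, with 1 higher and 2 lower, nor did the transcription factors. Em, Rab15 and oleosin, which rose, are not in that list, so it does not speak for all transcripts that respond to abscisic acid. HVA22, a protein that abscisic acid induces in the barley aleurone, rose by 3.55 (SE 0.27, adjusted p = 2.5e-06), with 2.04, 2.28 and 2.03 at 28 DAA, against -1.57, -1.90 and -0.81 at 14 DAA. A protein phosphatase 2C, of the class that holds negative regulators of abscisic acid signalling, fell by 2.45 (SE 0.23, adjusted p = 1.1e-05). A probe set described only as related to abscisic acid fell by 2.93 (SE 0.29). Of the 18 transcription factors named by function, 2 rose and 3 fell, against 11.0% and 23.4% of the whole list of functions. Their median was -0.10. The 2 that rose were both NAC domain proteins, a plant-specific family with members that act in senescence and stress. NAC67 had 3.09, 3.62 and 3.67 at 28 DAA, against -1.08, -1.65 and -1.14 at 14 DAA, and rose by 4.75 (SE 0.31, adjusted p = 7.8e-07), and the other rose by 4.13 (SE 0.17). A MYB family factor fell by 5.88 (SE 0.41, adjusted p = 1.3e-06) and NF-YB4, a subunit of the CCAAT-binding factor NF-Y, by 3.93 (SE 0.17). For these 2 the stages did not overlap.

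The defence proteins split in direction. WGA2, wheat germ agglutinin, is a chitin-binding lectin of the embryo. It had 2.38, 2.44 and 2.56 at 28 DAA, against -3.69, -4.52 and -1.80 at 14 DAA, a log2 fold change of 5.80 (SE 0.49, adjusted p = 4.8e-06), or 55.7-fold. A ribosome-inactivating protein rose by 5.98 (SE 0.34, adjusted p = 3.3e-07) and wheatwin, a chitin-binding pathogenesis-related protein, by 4.86 (SE 0.36, adjusted p = 2e-06). The 14 probe sets of chitinases and pathogenesis-related proteins had a median of 0.99. In the whole list of functions 11.0% rose and 23.4% fell, against 5 (35.7%) and 3 (21.4%) of these 14. The 3 that fell were a protein of the Bet v I family (-5.59, SE 0.27), a class of small ligand-binding proteins, and the transfer cell proteins PR9 and PR60, which the key words of the list picked by the letters of their names. The defensin Tk-AMP-D4, an antimicrobial peptide, fell by 3.60 (SE 0.59, adjusted p = 0.00064). It was among the 3 of 9 antimicrobial probe sets named by function that fell (33.3%), and 0 of the 9 rose. By gene name, 6 probe sets of purothionins, antimicrobial peptides of the endosperm, lay between -0.19 and 0.22 with 0 called.

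Further large rises were seen in transcripts of no list. An early nodulin-like protein had 7.89, 8.89 and 8.67 at 28 DAA, against 0.02, -0.02 and 2.11 at 14 DAA, and rose by 7.78 (SE 0.47, adjusted p = 4.7e-07). An aldose 1-epimerase, which interconverts the anomers of sugars, rose by 5.79 (SE 0.28). An aminotransferase had 5.71, 5.79 and 5.19 against -0.04, 0.09 and -0.38, and rose by 5.67 (SE 0.17, adjusted p = 1.4e-08). In all 3 the stages stood apart, and in the early nodulin-like protein replicate 3 of 14 DAA again lay above its group.

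The storage proteins, the nitrogen reserve of the starchy endosperm, gave small fold changes. Of 17 probe sets of gliadin, glutenin and avenin-like genes, none was called higher or lower, and their log2 fold changes ran over a narrow band of -1.02 to 0.67 with a median of -0.04. The list was formed after the values were seen. Of the 5 storage proteins named by function, 0 were called. The alpha-gliadin probe set had 0.91, -0.44 and 0.33 at 28 DAA, against -0.02, 0.02 and 0.58 at 14 DAA, so the stages overlapped (0.07, SE 0.35, adjusted p = 0.92). Omega-gliadin gave 0.01 with a wide SE of 1.58. The estimate of spread is shared with WL711, whose arrays at 28 DAA had -0.14, -8.60 and -7.45, whereas the values in IITR26 were 0.91, 0.14 and 0.68 at 28 DAA and 0.57, 0.42 and 0.70 at 14 DAA. Gamma-gliadin B-I gave -0.19 (SE 0.67). An avenin-like protein had -2.46, -3.03 and -2.74 at 28 DAA, against -2.07, -1.39 and -1.72 at 14 DAA, a log2 fold change of -1.02 (SE 0.17, adjusted p = 0.00087) that is under the fold threshold. Embryo globulin, a reserve of embryo and aleurone, gave 0.84 (SE 0.25, adjusted p = 0.027).

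Transcripts of starch synthesis fell over the same days. AGA.1, the large subunit of ADP-glucose pyrophosphorylase (the enzyme that makes the sugar donor for starch), had -3.11, -3.53 and -3.42 at 28 DAA, against 0.30, 0.51 and -0.04 at 14 DAA. It fell by 3.61 (SE 0.25, adjusted p = 1.1e-06). A further probe set with the same gene name gave -0.17 (SE 0.13, adjusted p = 0.42), so the 2 probe sets of AGA.1 disagree. The small subunit AGP-S had -1.21, -1.65 and -1.45 against 0.69, 0.75 and 0.44 and fell by 2.06 (SE 0.14, adjusted p = 1.1e-06), a value close enough to the threshold that leaving out 1 of 2 arrays took it below (-1.95 without replicate 2 of 28 DAA). GBSS-I, the waxy protein that makes amylose, had -2.40, -2.54 and -2.87 against 0.14, 0.19 and 0.00 and fell by 2.72 (SE 0.23, adjusted p = 5.4e-06). Thus 3 of the 4 probe sets of starch synthesis genes fell, against 12.5% of the 200 probe sets with a platform name. This list was formed after the values were seen. Both probe sets found by function fell as well, against 23.4% of the whole list of functions. They were the isoamylase wDBE-D1, a debranching enzyme that shapes amylopectin, with -2.69 (SE 0.15) and a large subunit of glucose-1-phosphate adenylyltransferase with -2.81 (SE 0.18). BMY1, a beta-amylase, had -2.35, -2.64 and -2.21 against 2.45, 3.50 and 1.83, the largest fall among these enzymes at -4.99 (SE 0.37, adjusted p = 1.8e-06).

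Histone transcripts, which cells make when they copy their DNA, fell steeply. A histone H4 probe set had -6.39, -6.11 and -5.42 at 28 DAA, against -0.06, -0.22 and 0.21 at 14 DAA, a log2 fold change of -5.95 (SE 0.28, adjusted p = 8.8e-08), and a further histone H4 probe set gave -5.69 (SE 0.20). Histone H3 fell by 4.62 (SE 0.22) and a core histone domain protein fell by 5.15 (SE 0.20). Of the 21 probe sets for histones and DNA replication named by function 13 fell and 0 rose, with a median of -3.08. This share of 61.9% stands against 23.4% in the whole list of functions.

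By gene name, which does not rest on these arrays, 12 of 18 probe sets for H2A and H2B fell and 0 rose, with a median of -3.62. The list itself was formed after the values were seen, and 12.5% of the 200 probe sets with a platform name fell. The fall was seen in 2 of the 5 genes. H2A-9 (LOC732714, chromosome 6B) fell in 5 of 6 probe sets and H2B-8 (LOC543184, chromosome 7D) in 7 of 7, with -4.95 to -2.62. The H2A-9 probe set with the largest change had -5.46, -5.24 and -5.26 against 0.70, 0.32 and 0.93 (-5.97, SE 0.31, adjusted p = 1.7e-07). The 6 probe sets that were not called lay between -1.68 and 0.39. Histone genes form a large family of near-identical members, so a probe set can read several of them and the gene behind each fall is uncertain.

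Transcripts of the cell cycle shifted the same way. All 9 probe sets had a negative fold change, and 4 were called (44.4%), against 23.4% that fell in the whole list of functions. E2F target gene 1 fell by 2.42 (SE 0.17, adjusted p = 1.4e-06), kinesin motor proteins, which move along microtubules, by 2.41 (SE 0.16) and 2.61 (SE 0.23), and a RecF/RecN/SMC domain protein, of the family that holds chromosomes together, by 2.25 (SE 0.27). Cyclin B2 and the other 4 lay between -1.55 and -0.75. After a quantile normalization repeated on the median-centred values 0 of the 9 were called. E2F target gene 1 then gave -1.67 and the RecF/RecN/SMC protein -1.46. That step gave every array the same spread of centred values. Before it, the interquartile range was 0.347 to 0.399 in the 28 DAA arrays and 0.228 to 0.236 in the 14 DAA arrays. A call lost after it thus cannot be told apart from an effect of the step itself. The 10 probe sets of tubulins, the subunits of microtubules, had a median of -1.22 and 0 were called. A probe set of the alpha-tubulin TUBA had -1.45, -1.49 and -1.63 against 0.18, 0.09 and 0.11. This separation of -1.65 (SE 0.10, adjusted p = 3.8e-07) stayed under the fold threshold. The other probe set of TUBA went the other way, with 0.85, so the 2 disagree.

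Photosynthesis, carried out in the green layer of the pericarp, gave 6 falls among 36 probe sets with a gene name (16.7%). This list was formed after the values were seen, and 12.5% of the 200 probe sets with a platform name fell. The key words set before that found 31 probe sets by gene name, 3 of them lower (9.68%). Neither share sets these probe sets apart from the other platform names. However, 28 probe sets of a single gene, rbcl, with 0 called, make up most of both lists. The shares therefore describe probe sets rather than genes. Each other gene of the longer list had a called fall in at least 1 probe set. PsbO, a subunit of the oxygen-evolving complex of photosystem II, had -2.16, -2.77 and -2.50 at 28 DAA, against 0.62, 0.42 and 0.30 at 14 DAA. It fell by 2.93 (SE 0.21, adjusted p = 1.7e-06), and its partner PsbP by 2.44 (SE 0.24) and 2.01 (SE 0.31). In the Calvin cycle, fructose bisphosphatase (FBP) fell by 2.28 (SE 0.24) and phosphoribulokinase (PRK) by 2.17 (SE 0.16), and petC, the Rieske protein of the cytochrome complex, fell by 2.07. Leaving out replicate 2 of 28 DAA left 3 of the 6 calls, and FBP then gave -1.97. A repeated quantile normalization left 2. The other 28 of these probe sets carry the name rbcl, the large subunit of Rubisco, with a range of -1.30 to 0.48 and 0 called. They set the median of the list, -0.18, and FBP and petC had 1 further probe set each near 0 (0.11 and -0.07).

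Photosynthesis transcripts named by function gave larger falls, with 5 of 10 lower and 0 higher (median -2.04), against 23.4% lower in the whole list of functions. The photosystem II 10 kDa polypeptide had -4.19, -3.78 and -3.80 against 1.32, 1.40 and 1.58 and fell by 5.35 (SE 0.17, adjusted p = 1.7e-08). Protochlorophyllide reductase, which makes chlorophyll in the light, fell by 5.29 (SE 0.27, adjusted p = 1.6e-07). Chlorophyll a-b binding proteins, the light-harvesting antenna, gave -3.30 (SE 0.22) and -3.05 (SE 0.27).

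**Figure D3:**
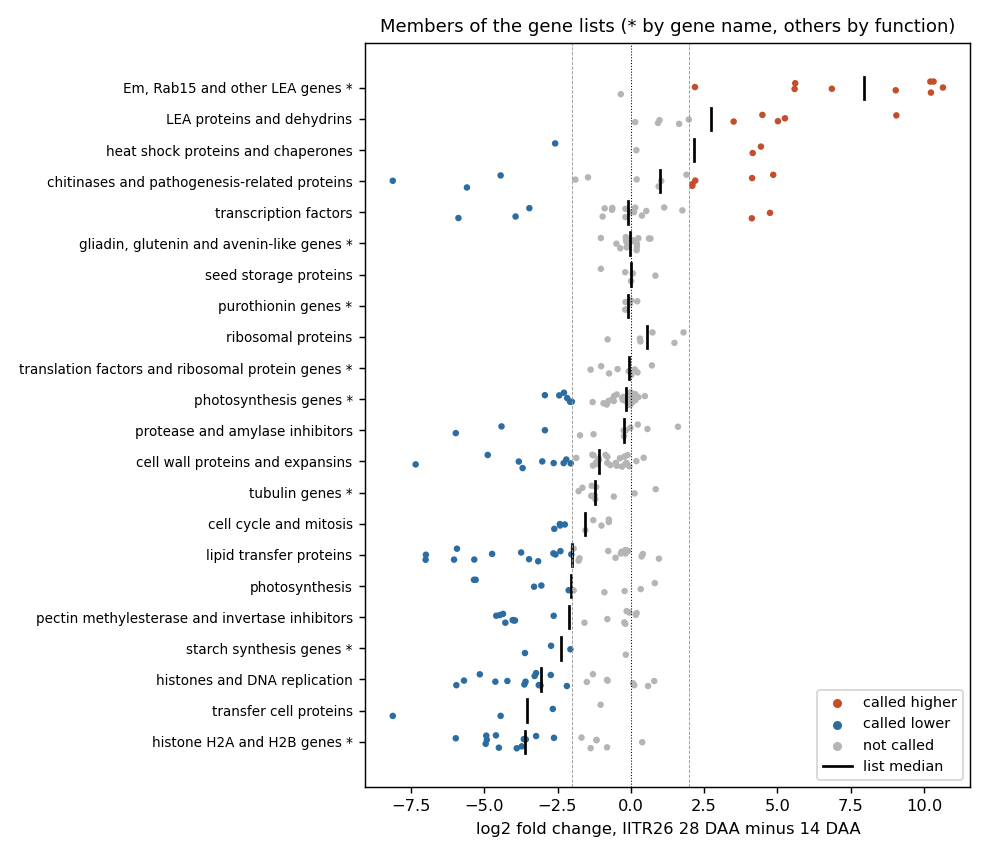
Log2 fold change of IITR26 grain, 28 DAA minus 14 DAA (x axis), of each member of 22 gene lists (rows), with 1 point a probe set, a bar at the list median and dashed lines at the fold threshold of 2. LEA lists lie to the right (medians 7.95 and 2.75), storage proteins near 0 (-0.04 and 0.01) and histones to the left (-3.62 and -3.08). Probe sets of 1 gene are separate points and count separately in the medians.

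The largest named fall was in a transcript of the transfer cells. PR9, described as specific to the endosperm transfer cells, had -7.74, -7.90 and -8.17 at 28 DAA, against 0.03, 0.45 and 0.07 at 14 DAA. This gave a log2 fold change of -8.12 (SE 0.26, adjusted p = 1.7e-08). PR60, of the same cells, fell by 4.44 (SE 0.27, adjusted p = 5.1e-07) and the ZmEBE-1 protein, named after a maize transcript of the embryo-surrounding region and basal endosperm, by 2.66 (SE 0.39). MFS18, described as associated with the vascular bundle, gave -1.03 (SE 0.13) and was not called. Thus 3 of 4 transfer cell probe sets fell, against 23.4% of the whole list of functions, and 0 rose, with a median of -3.55.

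Lipid transfer proteins, small secreted proteins that carry lipids to cutin and other extracellular layers, fell in 13 of 26 probe sets and rose in 0, with a median of -1.99. LTPL31 had -5.80, -7.23 and -6.40 at 28 DAA, against 0.18, 0.97 and 0.41 at 14 DAA, and fell by 7.0 (SE 0.32, adjusted p = 7.8e-08). A lipid binding and transport protein fell by 6.99 (SE 0.39), a lipid transport protein fell by 6.03 (SE 0.25) and a nonspecific lipid transfer protein fell by 5.93 (SE 0.20). The 13 members that were not called lay between -1.95 and 0.96, so the list held both steep falls and near-flat members.

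Some proteins that loosen or remodel the cell wall fell. Of 33 probe sets of cell wall proteins and expansins 9 fell and 0 rose, with a median of -1.09. This share of 27.3% lies near the 23.4% that fell in the whole list of functions, so the count does not set wall proteins apart from that list. Beta-expansin, a wall-loosening protein of cells that expand, had -4.48, -5.31 and -4.98 at 28 DAA, against 2.35, 2.01 and 2.88 at 14 DAA, and fell by 7.34 (SE 0.36, adjusted p = 1.1e-07). A leucine-rich repeat protein of the extensin family fell by 4.88 (SE 0.22) and an expansin precursor by 3.82 (SE 0.44). The platform gives beta-expansin and this precursor the same gene, LOC606352 of chromosome 1A, so they are not separate observations. An endoglucanase, which cuts glucans of the wall, had -5.15, -5.63 and -5.38 against 1.24, 0.98 and 0.67, a fall of 6.36 (SE 0.28, adjusted p = 7.1e-08). Inhibitors of pectin methylesterase and invertase fell in 8 of 16 probe sets and rose in 0 (median -2.11), the largest by 4.59 (SE 0.52). An egg apparatus protein, of a family first found in maize egg cells, fell by 6.41 (SE 0.28, adjusted p = 7.3e-08), with no overlap of the stages.

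**Figure D4:**
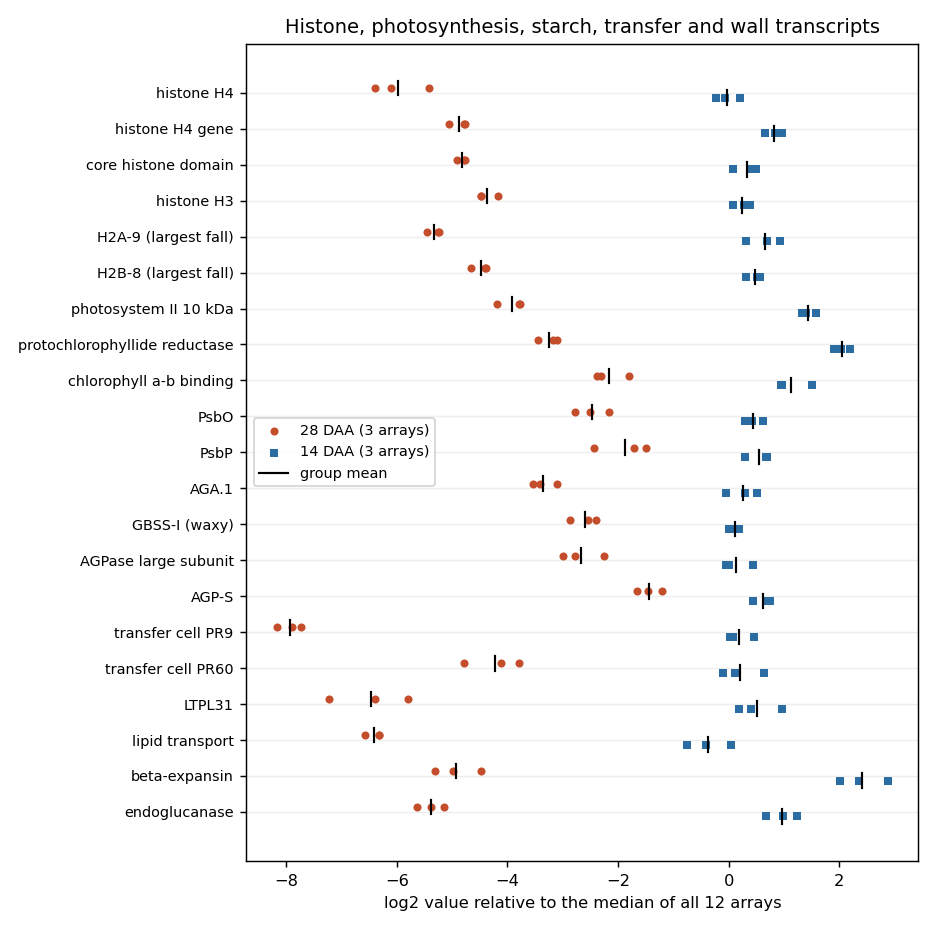
Log2 values relative to the median of all 12 arrays (x axis) of 21 probe sets of histones, photosynthesis, starch synthesis, transfer cells, lipid transfer and the cell wall (rows), with 1 point for each IITR26 array and a bar at each group mean. The rows are called falls only, so the 3 arrays of 28 DAA lie to the left of the 3 of 14 DAA in each, furthest for PR9 at -7.74 to -8.17.

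Inhibitors of proteases and amylases, which protect the reserves from digestion, rose in 0 of 12 probe sets and fell in 3, a share close to the 23.4% that fell in the whole list of functions. A Kunitz-type protease inhibitor had -0.32, -0.22 and -0.55 at 28 DAA, against 5.49, 5.98 and 5.36 at 14 DAA, and fell by 5.97 (SE 0.32, adjusted p = 2.1e-07). A cystatin, which blocks cysteine proteases, fell by 4.41 (SE 0.25) and the chymotrypsin inhibitor WCI by 2.93 (SE 0.16). A further cystatin probe set gave -0.01 (SE 0.34), and the serpins of the endosperm lay between -0.67 and 0.88 and were not called.

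In secondary metabolism, 2 of the 9 probe sets of flavonoid and lignin synthesis rose (22.2%) and 3 fell (33.3%). In the whole list of functions 11.0% rose and 23.4% fell. Flavanone 3-hydroxylase, an early enzyme of the flavonoid pathway, fell by 5.22 (SE 0.40, adjusted p = 2.7e-06), whereas a further flavonoid enzyme was among those that rose. Cinnamoyl-CoA reductase, of lignin synthesis, rose by 2.52 (SE 0.15, adjusted p = 4e-07), and a peroxidase precursor rose by 3.55 (SE 0.23). An ammonium transporter, which carries ammonium across membranes, fell by 4.87 (SE 0.47, adjusted p = 1.3e-05).

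The genotype was grown for its minerals, and 4 probe sets of metal binding and chelation were named by function. Nicotianamine synthase 3 makes the chelator nicotianamine, which carries iron and zinc within plants. Its probe set had -2.29, -2.27 and -2.77 at 28 DAA, against 0.04, -0.04 and 0.27 at 14 DAA, and fell by 2.53 (SE 0.16, adjusted p = 6.9e-07). A repeated quantile normalization gave -1.88, under the threshold. Metallothionein, a cysteine-rich metal-binding protein, had 1.21, 1.06 and 1.03 against 1.49, 1.42 and 1.60. That log2 fold change of -0.40 (SE 0.18, adjusted p = 0.13) is smaller than the threshold, and the remaining 2 members gave -0.41 and 0.24.

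Most of the changed probe sets have no name here, 755 of those that rose and 829 of those that fell. The largest rise of an unnamed probe set was 10.48 (SE 0.54, adjusted p = 1.6e-07), with 6.50, 7.22 and 6.67 at 28 DAA and -4.35, -4.21 and -2.50 at 14 DAA. A further one rose by 9.29 (SE 0.64), with 7.37, 8.71 and 10.81 against -0.31, -0.40 and -0.25. The identifier of the first carries the same cluster number as those of the Em gene LOC543480, so it may read an Em transcript and is not counted as a separate observation. The unnamed probe set with the steepest change downwards had -2.66, -2.08 and -2.12 at 28 DAA, against 6.15, 6.02 and 5.91 at 14 DAA. It gave the largest fall of all probe sets, -8.32 (SE 0.62, adjusted p = 1.9e-06), and a further one fell by 7.85 (SE 0.33). In each of the 4 the stages stood apart.

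Called probe sets shared features that the comparison did not use. Probe sets that the manufacturer marks as able to read more than 1 transcript made up 31.7% of those that rose and 40.3% of those that fell, against 20.8% of all. Among the 1273 probe sets with a platform gene, the wheat subgenomes gave similar shares. In subgenomes A, B and D, 3.12%, 5.18% and 3.83% of probe sets rose and 6.71%, 7.63% and 6.81% fell, and since probe sets can read the matching genes of the other subgenomes, no difference between them was tested.

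WL711 grains were compared over the same days to see where the change in IITR26 differed. In WL711 586 probe sets (0.958%) rose and 819 (1.34%) fell. Of these, 341 rose in both genotypes, 42.0% of the rises in IITR26 and 58.2% of those in WL711, and 394 fell in both, 40.5% and 48.1%. No probe set rose in IITR26 and fell in WL711, and 6 fell in IITR26 and rose in WL711. The difference between the changes, tested as an interaction, was called in 446 probe sets in the positive (0.729%) and 487 in the negative direction (0.796%). Of the 812 rises in IITR26, 166 (20.4%) were larger than in WL711 by this test and 28 (3.45%) smaller. Of the 973 falls, 244 (25.1%) were larger and 28 (2.88%) smaller. Both sets were called on the same IITR26 values that enter this test. An excess of larger changes is therefore favoured by the choice itself, and it does not show a stronger change in IITR26 in general. On the median-centred values, replicate 1 of WL711 at 28 DAA correlated with its group at r of 0.286 and 0.412. The remaining arrays of the group correlated with each other at 0.672. With the IITR26 arrays of 28 DAA, replicate 1 correlated at 0.365 to 0.395, and the remaining arrays of its group at 0.0375 to 0.235. Why this array stood nearer to IITR26 was not tested. These r compare deviations from the median and are not correlations of expression levels. Without replicate 1 the difference was called in 966 probe sets in place of 933. Of the 57 named here whose difference was called, 56 stayed called without it, the exception being MFS18 (1.89), and gamma-gliadin B-I became called (-2.54).

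The rise of Em and Rab15 was not called different between the genotypes. For the Em probe set with the largest change the difference between the log2 fold changes, IITR26 minus WL711, was 0.08 (SE 0.95, adjusted p = 0.98), with 10.65 in IITR26 and 10.58 in WL711. Oleosin gave -0.80 (SE 0.45, adjusted p = 0.33) and PsbO -0.58 (SE 0.30, adjusted p = 0.28). For 2 histone genes the probe set with the largest fall fell further in IITR26. That of H2A-9 gave -5.97 in IITR26 and -2.16 in WL711, a difference of -3.80 (SE 0.44, adjusted p = 0.00031), and that of H2B-8 gave -4.95 in IITR26 and -1.59 in WL711 (-3.36, SE 0.32, adjusted p = 8.3e-05). Over all probe sets of each gene the difference was called in 3 of 6 for H2A-9, with a range of -3.87 to 1.19, and in 6 of 7 for H2B-8, with a range of -3.83 to -1.93. In starch synthesis the difference was called in 2 of the 4 probe sets, with -3.05 for a probe set of AGA.1 (SE 0.35, adjusted p = 0.00029) and -2.21 for GBSS-I (SE 0.33, adjusted p = 0.0014). It was not called in the other AGA.1 probe set (-0.12, adjusted p = 0.77) or in AGP-S (-1.24, adjusted p = 0.0023), which is under the fold threshold. These 4 genes were named by the platform annotation, not by the study's list.

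The named probe sets with the largest differences came from the study's list, which was chosen for differences between the genotypes. Beta-expansin gave -7.34 in IITR26 and 1.52 in WL711, a difference of -8.86 (SE 0.50, adjusted p = 3.6e-06), and flavanone 3-hydroxylase -5.22 and 2.33 (-7.55, SE 0.57). The LEA group 1 protein gave 9.06 and 1.98, a difference of 7.07 (SE 0.47, adjusted p = 9e-06), and the early nodulin-like protein 7.78 and 0.03 (7.75, SE 0.67). A cystatin of chromosome 2D with no change in IITR26 beyond its SE (-0.01, SE 0.34) gave -7.38 in WL711, a difference of 7.37 (SE 0.48). A glycine-rich protein rose by 2.47 (SE 0.52, adjusted p = 0.0036) in IITR26 and by 9.54 in WL711 (-7.07, SE 0.73), and its call in IITR26 was lost when any of 5 single arrays of IITR26 was left out.

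**Figure D5:**
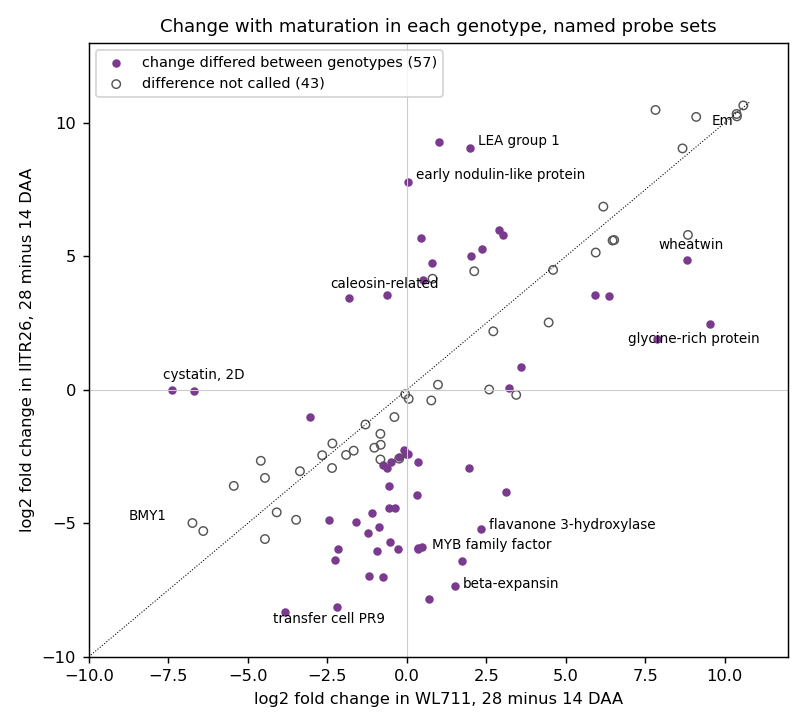
Log2 fold change between 28 and 14 DAA in IITR26 (y axis) against that in WL711 (x axis) for the 100 probe sets named here, filled where the difference between the genotypes was called (57) and open where it was not (43), with a dotted line of equal change. Em lies on the line, and beta-expansin lies far below it. Many of these probe sets were chosen by the study for a difference between the genotypes, so the share of filled points describes only this choice.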

How the data were processed

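The 12 arrays were read by the authors in GeneSpring GX v12 and normalized by RMA, as the methods and the submitters' processing notes state. The deposited values are log2 values, one per probe set and array, and cover all 61290 probe sets. In every probe set their median over the 12 arrays is 0, a shift that the methods do not describe and that leaves differences intact. No sample was dropped or imputed, and 0 columns of other samples were left aside.

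The 111 control probe sets were left out and 61179 were tested with limma 3.58.1 (lmFit, eBayes) under R 4.3.3, with a mean for each of 4 groups over 12 arrays and 8 residual degrees of freedom. P-values were adjusted after Benjamini and Hochberg, over all probe sets for each contrast. The interaction is the IITR26 change minus the WL711 change. The methods speak of biological replicates, and no source says that the grains came from separate plants, so p-values measure the spread between these samples. The fit was tested on simulated data.

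Names are the study's putative functions or the platform's gene annotation, which was matched to a RefSeq gene table (assembly IWGSC CS RefSeq v2.1) for 1272 of 1273 probe sets. The members and lists were chosen with earlier results of these data known, and 9 lists by gene name were added to 29 sets of key words after the values were seen. The text names probe sets by a rule that takes the 15 largest named rises and falls without overlap between stages, the 10 largest in each direction by platform name alone, up to 4 members of each list (every member of a list of 6 or fewer), the 6 largest differences in each direction from WL711, and 2 unnamed ones in each direction. LEA protein 12 lies outside it, and not all that qualified are named. Each probe set was tested on its own, and probe sets of 1 gene were not averaged. Promoter sequences were not analysed here.

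Alternatives, one at a time, were the 6 IITR26 arrays alone, the replicate number as a block, aligned array medians and robust eBayes. A quantile normalization was also repeated, on the median-centred values. Probe sets whose suffix is x, s or a were omitted, and a log2 fold change of 1 and an adjusted p of 0.05 were tried. Further alternatives were the methods' t-test with and without adjustment and the omission of each array. Another was a coefficient of variation under 50% in each group on the linear scale.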

Additional observations from a re-analysis of the deposited data

Results flagged for a closer look

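The change between the stages differed between IITR26 and WL711 in 57 of the 100 probe sets named above, by limma's interaction test at the thresholds of the report. Values are IITR26 change minus WL711 change in log2 units. Most come from the study's list, which was chosen for a difference between the genotypes on these arrays, so they are not independent of that choice.

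Among seed maturation transcripts the difference was 7.07 for the LEA group 1 protein, 2.89 for the small hydrophilic seed protein, 3.02 for dehydrin xero 1, 5.24 for the caleosin-related protein, -2.85 for LEA protein 12, -2.37 for HVA22, -4.87 for the probe set related to abscisic acid and -2.76 for embryo globulin. Among defence proteins and inhibitors it was 3.08 for the ribosome-inactivating protein, -3.97 for wheatwin, -5.98 for an antimicrobial peptide of the chitinase family, -6.31 for the Kunitz-type inhibitor, -4.05 for a cystatin, 7.37 for the cystatin of chromosome 2D and -2.32 for WCI. Alpha-gliadin gave -3.14.

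Transcription factors gave 3.95 for NAC67, 3.61 for the other NAC protein, -6.36 for the MYB factor and -4.24 for NF-YB4. Histones gave -5.67 and -5.16 for the 2 H4 probe sets, -3.54 for H3, -4.28 for the core histone domain protein, -3.80 for the H2A-9 and -3.36 for the H2B-8 probe set with the largest fall. Cell cycle transcripts gave -2.15 for the RecF/RecN/SMC protein, -2.38 for a kinesin and -2.46 for E2F target gene 1. In starch synthesis 1 of the 2 AGA.1 probe sets gave -3.05, GBSS-I -2.21, wDBE-D1 -3.03 and the adenylyltransferase large subunit -2.07.

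The transfer cell proteins PR9 and PR60 gave -5.91 and -3.88 and MFS18 gave 2.02. Lipid transfer proteins gave -6.23 for LTPL31, -5.79 for the lipid binding and transport protein, -5.10 for the lipid transport protein and -6.29 for the nonspecific one. Cell wall proteins gave -8.86 for beta-expansin, -6.94 for the expansin precursor of the same platform gene, -4.09 for endoglucanase, -2.44 for the extensin family protein and 6.64 for an invertase and pectin methylesterase inhibitor. The egg apparatus protein gave -8.16.

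Of the remaining probe sets, the early nodulin-like protein gave 7.75, the aldose 1-epimerase 2.75, the aminotransferase 5.23, the peroxidase precursor 4.17, flavanone 3-hydroxylase -7.55, the glycine-rich protein -7.07, nicotianamine synthase 3 -2.30 and the photosystem II 10 kDa polypeptide -4.14. Of the unnamed probe sets, the one with the second rise given above gave 8.28, the one with the largest fall -4.49 and the other fall -8.56.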

How the results depend on the processing

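The 812 rises became 513 with the coefficient of variation filter, 250 by the methods' t-test with adjustment (747 without) and 2531 at a log2 fold change of 1. The 973 falls became 481 by that t-test with adjustment (960 without), 580 without probe sets of suffix x, s or a, and 3321 at a log2 fold change of 1. The 933 differences from WL711 became 581 without those suffixes and 2510 at a log2 fold change of 1. Both filters test fewer probe sets. Leaving out single arrays gave 725 to 881 rises, 906 to 1032 falls and 784 to 966 differences. Of the 85 calls named, the adjusted t-test lost 17 rises and 11 falls, the repeated quantile normalization lost 2 rises (hsp16.9A at 1.72, the peroxidase precursor at 1.67) and 11 falls, and the causes were not tested. Of the 9 calls of Em, Rab15 and other LEA genes, 4 were left by the adjusted t-test, 3 without those suffixes and 1 with the coefficient of variation filter.

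Values near 0 changed sign. After the quantile normalization alpha-gliadin gave -0.06, omega-gliadin -0.35, the cystatin of chromosome 2D 0.05 and the avenin-like protein 0.70. Over single arrays left out, alpha-gliadin ran over -0.25 to 0.43, omega-gliadin -0.16 to 0.23, the cystatin -0.14 to 0.08 and the invertase and pectin methylesterase inhibitor -0.09 to 0.02. The glycine-rich protein ran over 1.99 to 3.09, and without replicate 3 of 14 DAA the antimicrobial peptide of the chitinase family was called at 2.12.

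Deviations of arrays with the same replicate number correlated at 0.0573 to 0.0658, and those with different numbers at -0.0413 to -0.0229. The signs thus went with the number, but all values were small, and the numbers were not taken as pairs. With the replicate number as a block there were 807 rises, 974 falls and 907 differences, and none of the 85 calls named was lost. Centred values hide how far each probe set stood above background.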
